A study of Homo sapiens with 10 samples.

Results

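The genes described here are the 3 D-type cyclins CCND1, CCND2 and CCND3, the kinases CDK4 and CDK6 that they activate, the inhibitors CDKN1A, CDKN1B, CDKN2C and CDKN2D, and RB1, the retinoblastoma gene that these kinases act on. They were chosen by symbol, from textbook knowledge of the pathway. They are 10 of the 19590 genes in the table, and all 10 were among the 13110 genes that reached a mean of 10 normalized counts and were tested. RNA-Seq had been performed on MV4-11, an established human acute myeloid leukemia (AML) cell line that expresses the transcription factor IRF8, in 4 libraries of cells infected with a control vector (Control) and 4 libraries of CRISPR/Cas9 knockout cells (IRF8 KO). Both groups were grown untreated in the same medium, and the knockout cells were clones raised by limited dilution after lentiviral infection and puromycin selection. The labels do not say which clone a library came from, nor whether replicates were separate cultures, so the p-values measure the spread between these libraries, which may be partly technical.

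D-type cyclins are made in response to growth signals and bind CDK4 or CDK6. The active kinases phosphorylate the RB1 protein, which then releases E2F transcription factors, and these switch on the genes of DNA replication. Inhibitors of the INK4 family (CDKN2C, CDKN2D) bind CDK4 and CDK6 themselves, while those of the CIP/KIP family (CDKN1A, CDKN1B) bind cyclin-CDK complexes. In blood cells and their leukemias CDK6 and the D cyclins CCND2 and CCND3 are commonly the prominent forms. The comparison asks how this machinery, through which growth signals reach the cell cycle, differed at the RNA level between cells with and without IRF8.

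The values are the normalized read counts deposited by the authors, in which 1 read was worth about 1 count. The reads recovered from them came to 39560072 in the smallest library and 65519047 in the largest (median 52233344). The targeted gene IRF8 had 29408 ± 12787 normalized counts in Control and 7375 ± 4339 in IRF8 KO (mean ± SD, n = 4). Its log2 fold change was −2.11 (SE 0.51, limma adjusted p = 0.022), and its RNA was still present in every knockout library. Of the 10 markers of myeloid cells all were measured at a mean of at least 10, and of the 10 markers of other cell types 3 (MS4A1 and HBB among them) were at 0 in every library. The summed myeloid markers lay between 81704 and 96133 in Control and between 124654 and 363529 in IRF8 KO, and the summed markers of other types between 1075 and 3303 in Control and between 93.8 and 279 in IRF8 KO. A few genes carried these sums. Of the myeloid markers 4 were called higher (MPO, ITGAM, CD4 and PTPRC), LYZ reached 248604 in 1 IRF8 KO library without being called (limma adjusted p = 0.060), and CD33, FLT3 and CSF1R had log2 fold changes of −0.34, −0.21 and −0.27. The sum of the other types was mostly KRT8 (means of 1997 and 173). Whether these shifts have a part in the results below was not tested, and in bulk RNA fewer cells with a transcript and less of it per cell cannot be told apart. The genes of chromosome 20 had a median log2 fold change of −0.92, and none of the 10 genes lies on that chromosome. Other chromosomes were shifted too, with medians of −5.55 for the 11 tested genes of Y, −0.33 for 21 and −0.19 for 18. The median was 0.22 for chromosome 5 and 0.16 for chromosome 13, which holds RB1. Whether such shifts mark the clones or the loss of IRF8 was not tested.

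Of the 10 genes, the INK4 inhibitor CDKN2C was lower in IRF8 KO by limma at an adjusted p under 0.05 and none was higher. Among all tested genes 18.2% were called in either direction, 9.56% as lower and 8.65% as higher, so 1 lower gene of 10 is close to the background. At an unadjusted p under 0.05, 3 of the 10 (CCND1, CDKN2C and CDKN2D) were lower and 0 higher, beside 16.0% of all tested genes that were lower. The study set a threshold on its DESeq2 results (p below 0.01 and at least 2-fold), which was applied here to the unadjusted p and the fold of the limma fit. Of all tested genes 6.12% passed it as lower. The 1 gene of the 10 was CCND1, since CDKN2C changed by less than 2-fold. With the replicate number as a block, limma called these 3 as lower, against a background of 28.7% of all tested genes called in either direction and 14.6% as lower. DESeq2 on the recovered reads called the same 3 genes (13.1% of all tested genes were lower by DESeq2), and edgeR called CDKN2C. Neither called any of the 10 as higher. CCND1 and CDKN2C did not overlap between the groups, and 13.0% of all tested genes were likewise lower without overlap. The genes CCND1, CDKN2C and CDKN2D were lower in IRF8 KO in all 4 same-numbered pairs, which 23.8% of all tested genes also were. The median log2 fold change of the 10 genes was −0.21, beside −0.00 over all tested genes.

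**Figure D1:**
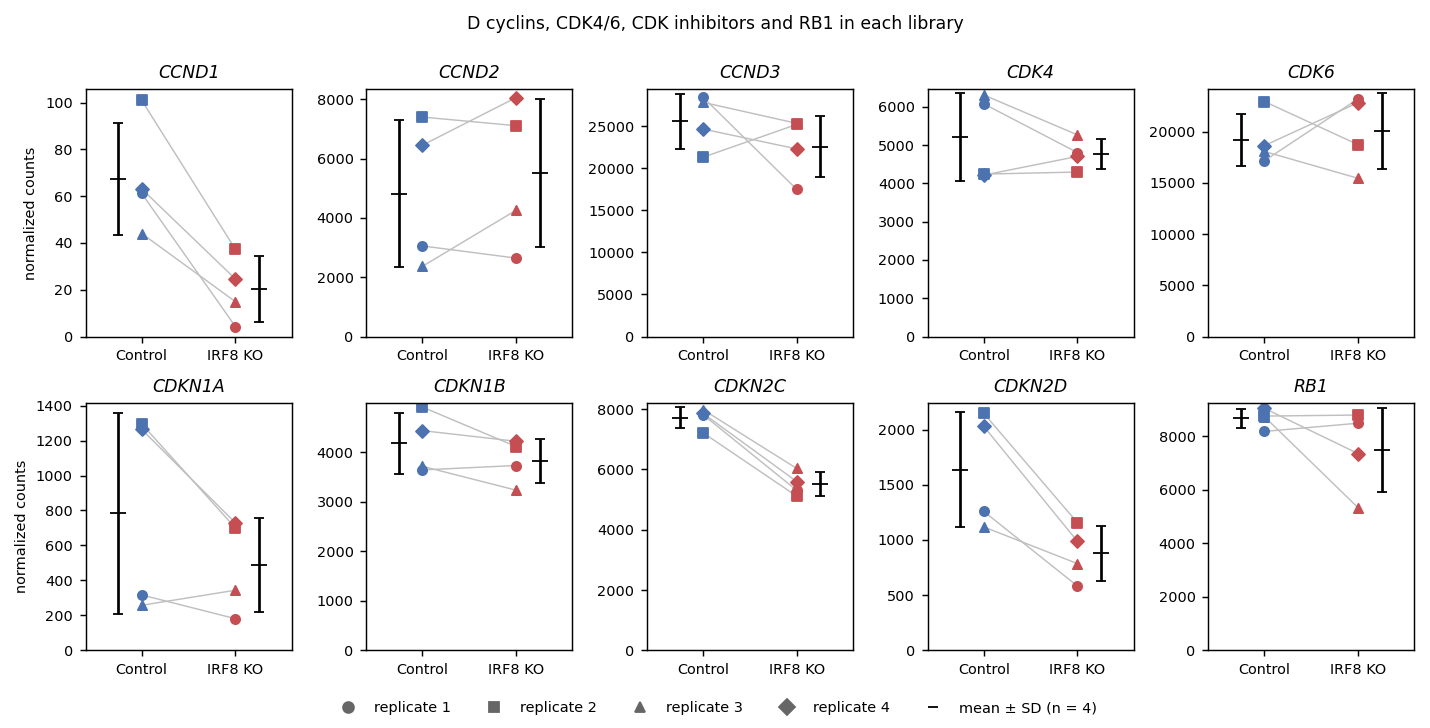
Normalized counts (y axis, linear from 0) of each of the 10 genes in the Control (blue) and IRF8 KO (red) libraries, with markers for the replicate number, grey lines joining libraries of the same number, and bars for the mean ± SD of 4 libraries. CDKN2C and CCND1 separate the groups, whereas CCND2, CDK6 and CDKN1B overlap widely.

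Among the D cyclins, CCND1 rested on the fewest reads and had the largest log2 difference. CCND1, the cyclin most often linked to adhesion and Wnt signals, had 61.1, 100.9, 44.0 and 63.1 normalized counts in Control replicates 1 to 4 and 4.26, 37.3, 14.9 and 24.6 in IRF8 KO. Every IRF8 KO library lay below every Control library. These counts rest on 4 reads in the lowest library (IRF8 KO replicate 1, exact 95% Poisson interval 1.09 to 10.2) and 117 in the highest (Control replicate 2, 96.8 to 140.2), intervals that cover counting error only. The mean in IRF8 KO was 30.1% of that in Control, and the log2 fold change was −1.95 (SE 0.59, 95% interval −3.29 to −0.61, limma adjusted p = 0.052). This passed the threshold with the replicate number as a block (SE 0.44, limma adjusted p = 0.0157) and without IRF8 KO replicate 2 (log2 fold change −2.34, limma adjusted p = 0.026), but not with the other single libraries left out. The exact permutation p was 0.0286, the smallest that 4 against 4 values allow. The differences of the same-numbered pairs were −3.56, −1.41, −1.50 and −1.32 on the log2 scale, so that pair 1, which holds the library with 4 reads, was far from the other pairs.

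CCND2, a D cyclin commonly induced by cytokine signals, had 3056, 7404, 2368 and 6455 normalized counts in Control and 2646, 7113, 4262 and 8062 in IRF8 KO. The libraries fell by replicate number and not by genotype, with replicates 2 and 4 high and replicates 1 and 3 low in both groups. The log2 fold change was 0.23 (SE 0.46, 95% interval −0.82 to 1.27, limma adjusted p = 0.80), and it became −0.063 without Control replicate 3. Replicates 2 and 4 exceeded replicates 1 and 3 by 2.57-fold in Control and by 2.25-fold in IRF8 KO.

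CCND3, a D cyclin widely expressed in blood cells, had 28452, 21325, 27849 and 24676 normalized counts in Control and 17490.4, 25229.8, 25352 and 22312 in IRF8 KO. The groups overlapped, and IRF8 KO replicate 1 alone lay below all Control libraries. The log2 fold change was −0.19 (SE 0.16, 95% interval −0.54 to 0.17, limma adjusted p = 0.47). Within replicates 1 and 3 the log2 difference was −0.42 and within replicates 2 and 4 it was 0.049. The grouping of replicates into these 2 sets was made after the data were seen.

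The share of each D cyclin in the summed D cyclin counts of a library does not depend on how libraries were scaled. As counts were not divided by transcript length, such shares compare libraries and not the amounts of different cyclins. The share of CCND1 was 0.194%, 0.350%, 0.145% and 0.202% in Control and 0.0212%, 0.115%, 0.0503% and 0.0809% in IRF8 KO. It was lower in all IRF8 KO libraries than in any Control library, by 0.156 percentage points between the means of 0.223 ± 0.088 and 0.0669 ± 0.0404 (SD, n = 4; exact permutation p = 0.0286). After adjustment over the 8 shares tested among these genes the exact p became 0.229, and with any 1 IRF8 KO library left out the unadjusted exact p was 0.0571. With any 1 Control library left out the unadjusted exact p was 0.0286.

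The share of CCND2 was 9.68%, 25.7%, 7.82% and 20.7% in Control and 13.1%, 22.0%, 14.4% and 26.5% in IRF8 KO. The share of CCND3 was 90.1%, 74.0%, 92.0% and 79.1% in Control and 86.8%, 77.9%, 85.6% and 73.4% in IRF8 KO. Neither share differed between the groups beyond the spread of the libraries (differences of 3.03 and −2.88 percentage points, exact permutation p = 0.571 for both, n = 4). By replicate number the split was clearer, with a mean CCND2 share of 11.3% over the 4 libraries numbered 1 and 3 and 23.7% over those numbered 2 and 4. The summed D cyclin counts were 30464 ± 1220 in Control and 28137 ± 5455 in IRF8 KO (SD, n = 4), where the lowest library was IRF8 KO replicate 1 with 20141.

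**Figure D2:**
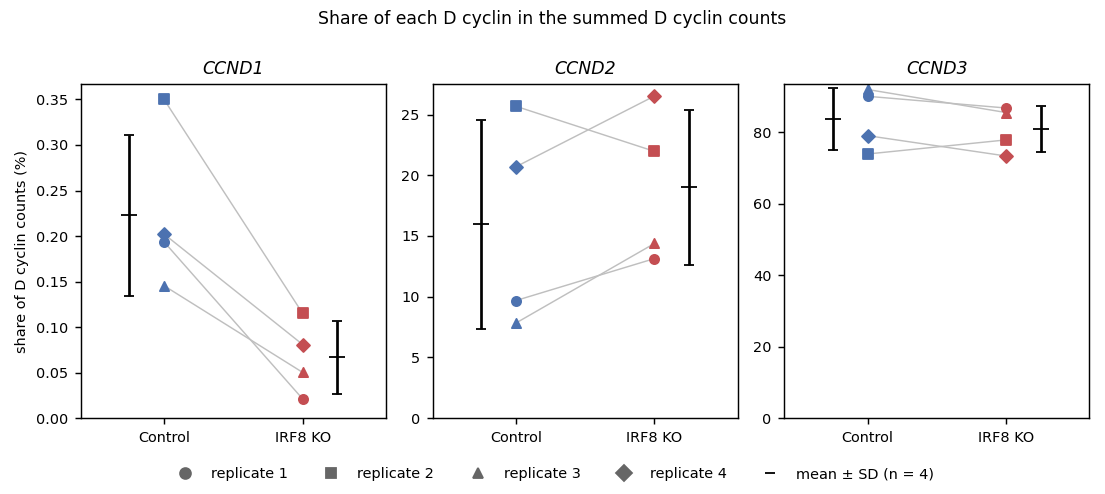
Share of each D cyclin in the summed D cyclin counts of a library (percent, y axis from 0, a separate scale for each gene) in Control (blue) and IRF8 KO (red), with markers for the replicate number, lines joining same-numbered libraries, and bars for the mean ± SD of 4 libraries. The CCND1 share was lower in IRF8 KO in all 4 pairs, while the CCND2 share was low in replicates 1 and 3 and high in replicates 2 and 4 of both groups.

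The genes whose pattern over the 8 libraries was most like that of each D cyclin were named by the root mean square difference of centred log2 values, among the genes that reached a mean of 100 normalized counts (10986 for CCND1). For CCND1 they included HIC1 (0.19) and TANC1 (0.25). For CCND2 they included ITPRIPL2 (0.16) and XBP1 (0.18), and for CCND3 they were SPINDOC (0.062), NFE2L3 (0.080) and DNPEP (0.091). These distances include the replicate pattern of the libraries as well as the genotype.

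The kinases differed little between the groups. CDK4 had 6074, 4240.3, 6306 and 4214 normalized counts in Control and 4802, 4294, 5264 and 4702 in IRF8 KO. The Control libraries numbered 1 and 3 were the highest, and all IRF8 KO libraries lay within the Control range. The log2 fold change of CDK4 was −0.11 (SE 0.17, 95% interval −0.48 to 0.27, limma adjusted p = 0.73).

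CDK6 had 17173, 22952, 18076 and 18655 normalized counts in Control and 23227, 18737, 15454 and 22852 in IRF8 KO. No order by group or by replicate number was visible, and the pairs moved both ways. The log2 fold change was 0.05 (SE 0.16, 95% interval −0.31 to 0.42, limma adjusted p = 0.87), and it became −0.024 without IRF8 KO replicate 1 and −0.017 without IRF8 KO replicate 4. The share of CDK6 in the summed counts of both kinases was 78.5 ± 5.32% in Control and 80.4 ± 3.96% in IRF8 KO (SD, n = 4; exact permutation p = 0.657).

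Of the 4 inhibitors, CDKN2C passed the test and the others did not. CDKN2C, which encodes an INK4 inhibitor of CDK4 and CDK6, had 7811, 7212, 7978 and 7853 normalized counts in Control and 5302, 5109, 6029 and 5594 in IRF8 KO. The groups did not overlap, and the spread within each was small (SD 342 and 400.3). The mean in IRF8 KO was 71.4% of that in Control, with a log2 fold change of −0.49 (SE 0.10, 95% interval −0.72 to −0.26, limma adjusted p = 0.0111). CDKN2C is the 1 gene of the 10 that was called at an adjusted p under 0.05 in all 19 fits made with other settings, tests or libraries left out, with adjusted p-values of at most 0.0386. The same-numbered pairs differed by −0.56, −0.50, −0.40 and −0.49 on the log2 scale, and the difference was of like size in both sets of replicates, −0.48 within replicates 1 and 3 and −0.49 within replicates 2 and 4.

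CDKN2D, the other INK4 inhibitor of the group, had 1258, 2146, 1118 and 2028 normalized counts in Control and 582, 1156, 785 and 987 in IRF8 KO. The groups overlapped by a single pair of libraries, IRF8 KO replicate 2 and Control replicate 3. The mean in IRF8 KO was 53.6% of that in Control, and the log2 fold change was −0.89 (SE 0.28, 95% interval −1.53 to −0.25, limma adjusted p = 0.061, exact permutation p = 0.0571). Each pair was lower in IRF8 KO, by −1.11, −0.89, −0.51 and −1.04 on the log2 scale, and the difference passed the threshold once replicate number entered as a block (SE 0.14, limma adjusted p = 0.0034). It also passed without Control replicate 3 (log2 fold change −1.05, limma adjusted p = 0.046) and without IRF8 KO replicate 2 (−1.04, limma adjusted p = 0.0449), but not without any of the other libraries.

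The sequences upstream of these INK4 genes are shown because they are the inhibitors that were lower in every pair. Each is the window of 250 bases before the start site farthest upstream, from RefSeq on GRCh38.p14, read 5′ to 3′ on the strand of the gene. For CDKN2C it lies at chr1:50960495-50960744 on the plus strand, with the E-box CACGTG in capitals, and for CDKN2D at chr19:10568980-10569229 on the minus strand, with the GC boxes (GGGCGG, or CCGCCC on the other strand) in capitals.
CDKN2C: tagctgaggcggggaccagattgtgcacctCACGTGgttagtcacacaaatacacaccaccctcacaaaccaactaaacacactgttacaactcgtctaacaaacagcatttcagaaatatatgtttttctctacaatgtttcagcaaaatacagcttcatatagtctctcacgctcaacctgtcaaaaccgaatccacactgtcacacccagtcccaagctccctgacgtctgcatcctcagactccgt
CDKN2D: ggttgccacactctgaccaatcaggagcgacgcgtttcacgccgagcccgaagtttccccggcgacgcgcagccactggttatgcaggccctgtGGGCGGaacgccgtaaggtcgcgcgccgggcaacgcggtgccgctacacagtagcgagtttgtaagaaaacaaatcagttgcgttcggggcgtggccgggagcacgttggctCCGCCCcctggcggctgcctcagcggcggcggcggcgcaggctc
RefSeq entries were matched for 8 of the 10 genes, with 13 start sites, and none for CCND1 and CCND2. The windows of RB1, CDKN1A and CCND3 lie within the span of the gene, so the sequence before their first starts was not searched. In the windows of these 13 sites, searched on both strands, neither the interferon-response core (GAAA, any 2 bases, GAAA) nor the ETS-IRF composite (GGAA, any 2 bases, GAAA) was found, nor TGACGTCA or the E2F letters TTTCCCGC, TTTGGCGC and TTTCGCGC. Among 35116 windows of the same length over all genes, 3.02% held the interferon-response core, 2.41% the ETS-IRF composite, 1.65% TGACGTCA and 2.32% the E2F letters. The E-box CACGTG was found 3 times before CDK4 and once each before the first and the last of the 3 CDKN2C start sites, against 6.34% of all windows, and the GC box is common, at 42.6% of all windows. A match is a description of letters, and the absence of one says nothing of binding elsewhere.

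CDKN1A, a CIP/KIP inhibitor, had 317, 1295, 258 and 1264 normalized counts in Control and 181, 699.7, 344 and 729 in IRF8 KO. It split by replicate number, with replicates 2 and 4 above replicates 1 and 3 by 4.46-fold in Control and 2.85-fold in IRF8 KO. The log2 fold change was −0.52 (SE 0.66, 95% interval −2.02 to 0.98, limma adjusted p = 0.66), from −0.93 without Control replicate 3 to −0.11 without IRF8 KO replicate 1. In 3 of 4 pairs it was lower (−0.80, −0.89 and −0.79 for pairs 1, 2 and 4) and in pair 3 it was higher (0.41), and it was not called with the replicate block either (SE 0.24, limma adjusted p = 0.15).

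CDKN1B, a CIP/KIP inhibitor of cyclin E and cyclin A complexes with CDK2, had 3646, 4916, 3719 and 4439 normalized counts in Control and 3735, 4118, 3236.5 and 4224 in IRF8 KO. The groups overlapped, with IRF8 KO replicate 3 the lowest library, and gave a log2 fold change of −0.12 (SE 0.14, 95% interval −0.45 to 0.20, limma adjusted p = 0.62). The 4 inhibitors together summed to 13032, 15568, 13072 and 15584 counts in Control and to 9799.7, 11082, 10395 and 11534 in IRF8 KO. Every IRF8 KO library was thus below every Control library, with means of 14314 ± 1457 and 10703 ± 763 (SD, n = 4). Of single tested genes, 13.0% were likewise lower without overlap. CDKN2C was the largest part of the sum (means of 7714 and 5508). The sum leaves out CDKN2A, an inhibitor gene described below, which was higher in IRF8 KO (means of 3376 and 5515). Within the summed counts of the 4 inhibitors the share of CDKN1B was 29.1 ± 1.65% in Control and 35.8 ± 3.14% in IRF8 KO, higher in 4 of 4 pairs (exact permutation p = 0.0571). After adjustment over the 8 shares the exact permutation p was 0.229. Unadjusted, it passed the threshold without IRF8 KO replicate 3 (a difference of 8.18 percentage points, exact permutation p = 0.0286) and with no other single library left out. The mean count of CDKN1B itself was not higher in IRF8 KO (3828 against 4180 in Control), while the summed counts were lower. The shares of CDKN2C (54.4% and 51.7%) and CDKN2D (11.3% and 8.12%) were lower in 4 of 4 pairs and that of CDKN1A (5.21% and 4.45%) in 3. As groups these shares did not differ beyond the spread of the libraries, with exact permutation p-values of 0.571, 0.143 and 0.6.

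RB1, whose protein the D cyclin kinases phosphorylate, had 8183, 8756, 8733 and 9044 normalized counts in Control and 8489.98, 8794, 5327 and 7352 in IRF8 KO. IRF8 KO replicates 1 and 2 lay within the Control range, whereas replicates 3 and 4 lay below it. The SD of the log2 values was 0.06 in Control and 0.33 in IRF8 KO. The log2 fold change was −0.24 (SE 0.16, 95% interval −0.61 to 0.13, limma adjusted p = 0.37), and −0.083 without IRF8 KO replicate 3. Relative to the median of the genes of chromosome 13 in each library, the difference was −0.41 (exact permutation p = 0.0286), as that median was 0.16 higher in IRF8 KO. Without that step the exact permutation p was 0.229. The value of 0.0286 is the smallest that 4 against 4 values allow. It is not adjusted for the 10 genes, and how many of all tested genes reach it on this measure was not computed.

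**Figure D3:**
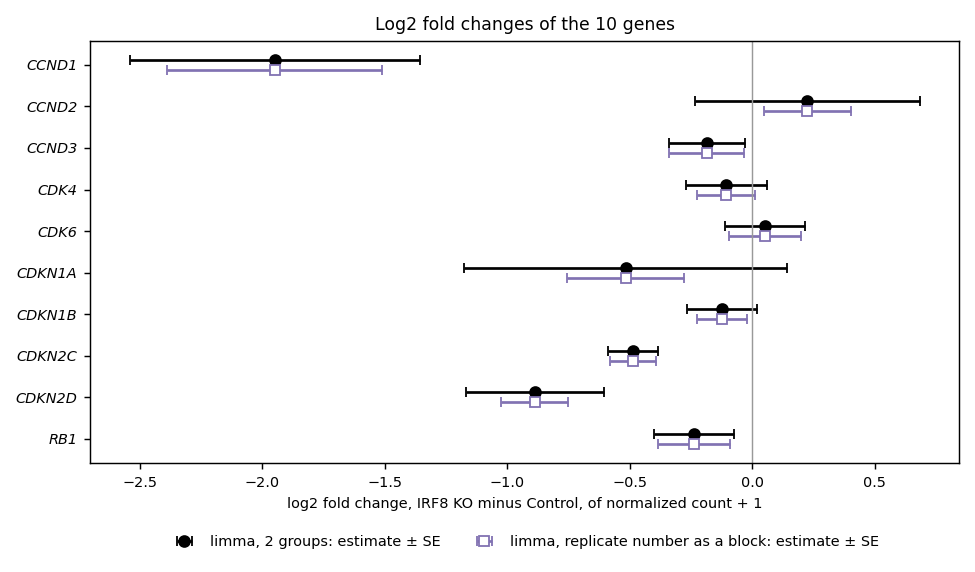
Log2 fold change, IRF8 KO minus Control, of log2(normalized count + 1) for the 10 genes (x axis), with bars of ± 1 SE from limma on the 2 groups (black circles) and from limma with the replicate number as a block (open squares). The estimates are identical and the bars shorter with the block, most for CDKN1A and CCND2.

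Some of these genes differed by replicate number. Averaged over both groups, CCND1, CCND2 and CDKN1A, 3 of the 10 genes, differed by at least 2-fold between replicates 2 and 4 and replicates 1 and 3, beside 9.79% of all tested genes. For CCND1 the split was 1.53-fold in Control and 3.42-fold in IRF8 KO. CDKN2D was higher in replicates 2 and 4 by 1.76-fold in Control and 1.58-fold in IRF8 KO. For CDK4 the ratio of replicates 2 and 4 to replicates 1 and 3 was 0.683 in Control and 0.894 in IRF8 KO, for CCND3 0.815 and 1.13, and for CDKN2C 0.953 and 0.946. The labels do not say what a replicate number stands for.

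**Figure D4:**
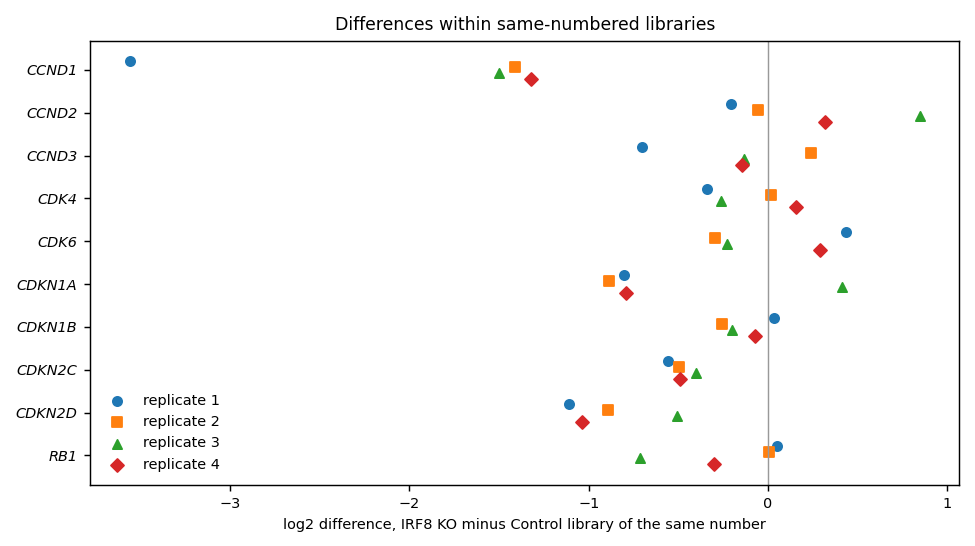
Difference of log2(normalized count + 1) between the IRF8 KO and the Control library of the same replicate number (x axis) for each of the 10 genes, with colours and markers for the replicate number. CCND1, CDKN2C and CDKN2D are below 0 in all 4 pairs, and the CDKN2C points lie within −0.56 and −0.40.

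The lists in this and the next paragraphs are described and were not tested as sets. Their counts stand beside 9.56% of all tested genes called as lower and 8.65% as higher. Of the 4 other CDK inhibitor genes, all tested, 2 were higher and 0 lower in IRF8 KO. CDKN2A, which encodes an INK4 inhibitor and, from another reading frame, another protein, went from 3376 ± 363 to 5515 ± 803 normalized counts (SD, n = 4; log2 fold change 0.70, limma adjusted p = 0.0088), and the gene's counts do not separate these products. CDKN2B, a further INK4 inhibitor, went from 244 ± 23.2 to 355 ± 32.7 (0.54, limma adjusted p = 0.045), a call that was lost when any single library was left out. The INK4 genes thus moved both ways, CDKN2C lower and CDKN2A higher. Of the 4, edgeR called 1 as higher and DESeq2 2. None was lower at an unadjusted p under 0.05 by limma (0), and edgeR and DESeq2 called 0 as lower.

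Among 12 genes of RB1 relatives, E2F factors and their partners, 3 were lower and 0 higher, with a median log2 fold change of −0.12. E2F7, a repressive member of the E2F family, fell from 452 ± 252 to 61.2 ± 6.18 normalized counts (SD, n = 4; log2 fold change −2.66, limma adjusted p = 0.0035) and was called with each single library left out. E2F1, an activating E2F (−0.96, limma adjusted p = 0.041), and RBL1, an RB1 relative (−0.81, limma adjusted p = 0.034), are genes of chromosome 20, and measured against that chromosome's median their log2 differences were −0.04 and 0.12. Their calls were lost in 6 and 5 of the 8 fits with 1 library left out. At an unadjusted p under 0.05, 1 of the 12 was higher by limma, edgeR called 0 as higher and DESeq2 1.

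Of the 24 E2F target genes of DNA replication, 1 was lower (UHRF1, a reader of hemimethylated DNA, −0.81, limma adjusted p = 0.029, lost without Control replicate 1 or 3 and without IRF8 KO replicate 1, 3 or 4) and 0 were higher, and their median log2 fold change was 0.35. The replicate block called 2 as lower and 4 as higher (among them MCM5, GMNN and CDCA7, with log2 fold changes of 0.70, 0.67 and 0.60), while at an unadjusted p under 0.05 limma had 3 as higher, DESeq2 called 1 and edgeR 0. Their median centred log2 level was 0.37, −0.93, 0.33 and −0.43 in Control replicates 1 to 4 and 0.18, 0.01, 0.31 and 0.05 in IRF8 KO. Control replicates 2 and 4, in which CCND2 and CDKN1A were high, were thus the low ones, and the IRF8 KO libraries lay closer together. The median SD of the log2 values of these genes was 0.67 in Control and 0.22 in IRF8 KO, beside 0.28 in both groups over all tested genes.

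Of 11 genes of the cyclin E, cyclin A and CDK2 step and its activators, 1 was higher and 0 lower. That gene was CCNA1, a cyclin A expressed in germ cells and in myeloid leukemia, which rose from 1195 ± 377 to 3855 ± 1386 normalized counts (SD, n = 4; log2 fold change 1.65, limma adjusted p = 0.013). CCNE1 (0.40), CCNE2 (−0.50), CCNA2 (0.15) and CDK2 (0.15) did not pass the test, with their log2 fold changes in brackets. At an unadjusted p under 0.05 limma had 0 of the 11 as lower, and so did the calls of edgeR and DESeq2.

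Of 14 genes for the turnover of D cyclins and CDKN1B, 12 were tested, of which 2 were higher and 0 lower. CUL1, the scaffold of SCF ubiquitin ligases, rose from 3472 ± 571 to 6249.9 ± 346 normalized counts (SD, n = 4; log2 fold change 0.86, limma adjusted p = 0.0038), and CUL4A, a cullin of another ligase class, had a log2 fold change of 0.50 (limma adjusted p = 0.026, lost without Control replicate 2 or 4 and without IRF8 KO replicate 1 or 4). At an unadjusted p under 0.05, 2 were lower by limma, and DESeq2 called 2 as lower and edgeR 0. FBXO4 (−0.63) and GSK3B (−0.47), both linked to the breakdown of D cyclins, were the ones that the replicate block called as lower. The block called 3 as higher, SKP1 (0.48) besides CUL1 and CUL4A. FBXO4 and SKP1 are genes of chromosome 5, and relative to its median their log2 differences were −0.86 and 0.25. CUL4A is a gene of chromosome 13, and relative to that chromosome's median its log2 difference was 0.33.

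Of 20 regulators that lie upstream of the D cyclins, 18 were tested, with 4 lower and 1 higher, beside 9.56% and 8.65% of all tested genes. The lower ones were the focal adhesion kinase PTK2 (−3.82, limma adjusted p = 0.00087), SRC on chromosome 20 (−2.14, or −1.22 relative to that chromosome, limma adjusted p = 0.00012), the AP-1 factor FOSL1 (−0.70, limma adjusted p = 0.011) and the leukemia factor MEIS1 (−0.56, limma adjusted p = 0.029), and the higher one was the AP-1 factor JUN (1.07, limma adjusted p = 0.042). The calls of MEIS1 and JUN were lost in 7 and 6 of the 8 fits with 1 library left out. MYC (log2 fold change 0.16), MYB (0.054) and FLT3 (−0.21) did not pass the test.

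Of 18 further CDKs and cyclins, 2 were lower and 1 higher. The transcription kinases CDK13 (−0.65, limma adjusted p = 0.0088) and CDK9 (−0.61, limma adjusted p = 0.0095) fell, and CDK14, which pairs with the membrane cyclin CCNY, rose from 238 ± 22.3 to 1361 ± 548 normalized counts (SD, n = 4; log2 fold change 2.38, limma adjusted p = 0.0022). All 3 were called with each single library left out.

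**Figure D5:**
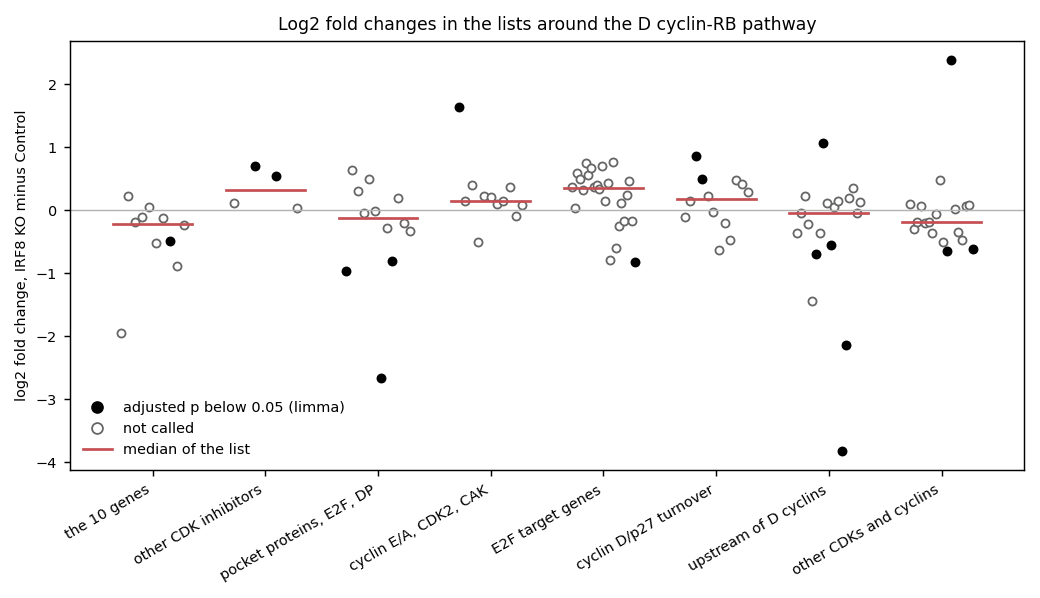
Log2 fold change, IRF8 KO minus Control (y axis), of each tested gene in the 10 genes described here and in 7 lists around them, with filled points for genes at a limma adjusted p below 0.05, open points for the rest, and red lines for the median of a list. The points of the 10 genes lie between −1.95 and 0.23, and 1 of them, CDKN2C, is filled.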

How the data were processed

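RNA-Seq libraries of MV4-11 cells, 4 Control and 4 IRF8 KO, were used. According to the study's methods, poly(A) RNA was sequenced with a stranded kit, reads were aligned with RNA-Star to the GENCODE v32 transcriptome, a release on GRCh38, counted per gene with featureCounts and normalized with DESeq2. The deposited signal is thus the read count of a gene divided by the authors' size factor of the library. The sources used here do not give the strand setting of the counting. Columns named as wild type were taken as the Control replicates with the same number, and 0 columns were left out. The authors' own comparison table (mean, fold change, error, score and p-values) and the ChIP-Seq samples were not used.

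In each library 100% of values were whole reads within 0.01 once divided by the value of 1 read, and the depth was 39560072 to 65519047 reads, so that counting error matters mainly for CCND1. limma 3.58.1 in R 4.3.3 was fitted with a trended, robust prior variance to log2(normalized count + 1) of the 13110 genes averaging 10 or more, which understates folds of low genes. Adjusted p-values are Benjamini-Hochberg values over all these genes, and a gene was called below 0.05. Single values were compared by exact two-sided permutation tests. Alternatives were pseudocounts of 0.5 and 5, other filters and scalings, count models on the recovered reads (DESeq2 1.42.0, edgeR 4.0.16), replicate number as a block, the study's threshold (unadjusted p below 0.01 and at least 2-fold) applied to the limma fit, and leaving out each library. edgeR called 1222 genes as lower and 1148 as higher in IRF8 KO. The fitting code was tested on simulated data. Same-numbered libraries deviated together from their group means (correlations across genes of 0.37, 0.48, 0.45 and 0.50), so the numbers were taken as pairs, although the labels do not say what they mark. These data do not single out same-numbered libraries, since replicates 1 and 3 and replicates 2 and 4 deviated together across the groups as well (0.41 to 0.47 and 0.40 to 0.41), and Control replicate 1 more with IRF8 KO replicate 3 (0.47) than with replicate 1. Chromosomes and promoters came from RefSeq tables of GRCh38.p14.

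The members and the lists around them were written from general knowledge, but with earlier results of these data known. Named genes are the 10 members, IRF8, at most 4 called genes per list and direction with the largest changes, and the 3 genes nearest to each D cyclin. MCM5, GMNN, CDCA7, FBXO4, GSK3B, SKP1, MYC, MYB, FLT3, CD33, CSF1R, LYZ, CCNE1, CCNE2, CCNA2, CDK2 and the marker genes at 0 are named outside that rule, after their values were seen. A few genes of this rule and 1 of the 8 lists are not reported here.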

Additional observations from a re-analysis of the deposited data

Results flagged for a closer look

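In 1 of 36 groups of 4 libraries checked, over the normalized counts and shares of the genes described here, a single library stood far from the rest. Control replicate 2 had a CDKN1B share of 31.6% of the summed inhibitor counts, against 27.98% to 28.49% in the other Control libraries, and the gap was 0.858 of the range of the group, above Dixon's limit for 4 values. Chance gives such a gap in about 1 of 20 groups. Without that library the difference in share was 7.45 percentage points (exact permutation p = 0.0571).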

How the results depend on the processing

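Of the log2 fold changes, that of CDKN2C kept its direction and an adjusted p under 0.05 in all 19 alternative fits, but it fails the 2-fold part of the study's threshold. CCND1 kept its direction. It passed the threshold with a pseudocount of 5 (−1.67, limma adjusted p = 0.039) and quantile normalization (−1.73, limma adjusted p = 0.026). It also passed with DESeq2 (−1.72, adjusted p = 0.020) and the replicate block (−1.95). Relative to the median of its chromosome CCND1 was −1.94, and its unadjusted exact permutation p was 0.0286 with or without that step. With edgeR its adjusted p was 0.068. With 1 library left out it ranged from −2.34 to −1.39. CDKN2D passed with DESeq2 (−0.90, adjusted p = 0.0147) and the replicate block (−0.89) and ranged from −1.05 to −0.71 with 1 library left out. RB1 relative to its chromosome was −0.41. CCND3 was −0.42 within replicates 1 and 3 and 0.049 within replicates 2 and 4, sets chosen after seeing the data. With 1 library left out, CCND2 ranged from −0.063 to 0.54, CDK6 from −0.024 to 0.17, CDKN1A from −0.93 to −0.11, CDK4 from −0.20 to −0.0052 and CDKN1B from −0.19 to −0.041. The number of the 10 genes called lower was 1 in the report, 2 with a pseudocount of 5 or quantile normalization, 3 with DESeq2 or the replicate block, 1 at the study's threshold (CCND1 in place of CDKN2C), and 1 to 3 with 1 library left out. Over the 8 other lists, 1 of which is not described above, 13 genes were lower and 7 higher in the main fit. These became 20 and 11 with DESeq2, 21 and 14 with the replicate block, and 5 and 3 at the study's threshold. With 1 library left out the lower ones numbered 9 to 14. The higher ones then numbered 4 to 6 (4 without Control replicate 4 or IRF8 KO replicate 4). Over all tested genes, 9.56% were lower and 8.65% higher in the main fit. With DESeq2, the replicate block and the study's threshold, 13.1%, 14.6% and 6.12% of all tested genes were lower. DESeq2 and the replicate block called 1679 and 1857 of the 13110 tested genes as higher. The share that was higher at the study's threshold is not given here. The counts of the lists were not tested against these backgrounds. The CCND1 share difference of −0.156 percentage points could not pass the threshold when same-numbered pairs served as the replicate block (−0.156, lower in 4 of 4 pairs), since the smallest exact sign-flip p of 4 pairs lies above 0.05, and it ranged from −0.182 to −0.114 with 1 library left out. The share difference of CDKN1A ranged from −1.84 to 0.277 and turned positive without Control replicate 2 (0.277), without Control replicate 4 (0.208) or without IRF8 KO replicate 1 (0.107), and that of CDKN1B ranged from 5.85 to 8.18. The replicate block changed no other call among the 10 genes. Shares per transcript length were not run, as no transcript lengths were used here. Where values moved, the cause was not tested. Depth limits mainly CCND1.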
